A study of Bos taurus with 27 samples.

Results

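The 10 genes described here are the most counted members of a run of cattle Ensembl gene identifiers, ENSBTAG00000043540 to ENSBTAG00000043590, that was taken to hold the genes of the mitochondrial genome. Of 19994 identifiers in the count tables, 16 lay in this run, and the 10 with the highest mean CPM (counts over the library total, scaled to 1000000) over all 27 embryos were kept. The members were thus chosen by their measured mean CPM, and their mean levels are given as a description. The files pair no identifier with a gene name, and 0 of the 19994 could be found in the RefSeq gene table (assembly ARS-UCD2.0). Mitochondrial origin was thus not tested here, no member could be given a gene name, and neither a sequence nor a position is shown.

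The study sequenced RNA of 27 single embryos of Bos taurus, taken at day 15 of pregnancy from dams on 1 of a pair of diets. The 3 groups were 6 embryos classed long from dams on an omega-3 diet, 10 classed short on the same diet, and 11 classed short from dams on an omega-6 diet. No long omega-6 embryo was analysed here, so size class and diet were compared through the short embryos or through the size number in each title, whose unit is not stated. Titles also carry a letter, m or f, and dams are not named. Some embryos may share a dam, and every p-value below reflects only how far these embryos spread.

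Mitochondria carry a small circular genome of their own. It encodes core subunits of the respiratory chain and of ATP synthase, together with the ribosomal and transfer RNAs needed to make them, while the other subunits come from nuclear genes. The RefSeq table lists 37 genes on it, of which 13 encode proteins, 2 are ribosomal RNAs and 22 are transfer RNAs. Both strands are transcribed as long precursors that are cut into single RNAs, so the levels of these RNAs are linked at the start and then set by the stability of each. Most of the messenger RNAs receive a short poly(A) tail and are captured in libraries that select polyadenylated RNA, as these did. At this stage of pregnancy the cattle embryo has not yet attached and elongates, mostly by growth of its outer layer, the trophectoderm.

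Total counts ran from 17931620 to 29868584 per embryo. The omega-6 embryos 22 and 25 had been set apart from the others by earlier results of these data, and their TMM scaling factors (trimmed mean of M-values, explained with the tests) of 0.773 and 0.888 were the lowest of the 27. The smallest embryo, 14, and these 2 embryos are therefore named wherever a value rests on them.

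The 10 members together took 3.11 ± 0.883% of all counts in an embryo (SD, n = 27). They held 99.0 ± 0.238% of the counts of the whole run of 16 identifiers. The most counted, ENSBTAG00000043561, averaged 12484 ± 2782 CPM (SD, n = 27) and ranked 4 among all genes. ENSBTAG00000043560 averaged 4497 ± 1581 CPM and ENSBTAG00000043550 averaged 3235 ± 1225 CPM. Below them came ENSBTAG00000043556 at 2500 ± 1055, ENSBTAG00000043584 at 2043 ± 717, ENSBTAG00000043558 at 1668 ± 522 and ENSBTAG00000043577 at 1596 ± 464 CPM. The last 3 lay close together: ENSBTAG00000043568 averaged 1058 ± 459, ENSBTAG00000043563 1007 ± 270 and ENSBTAG00000043571 991 ± 471 CPM. Gene lengths are not paired with these identifiers, so this order is one of reads and not of transcript numbers. The level of the last member kept stood well above that of the first left out, ENSBTAG00000043559, at 123 ± 44.3 CPM.

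Every member was counted deeply in every embryo, with between 10864 and 459305 reads, and all 10 passed the filter on low counts. Counting error was small beside the differences between embryos. The Wilson 95% interval of the summed share was at most 0.0183 percentage points wide in any embryo, and it covers counting error only.

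**Figure D1:**
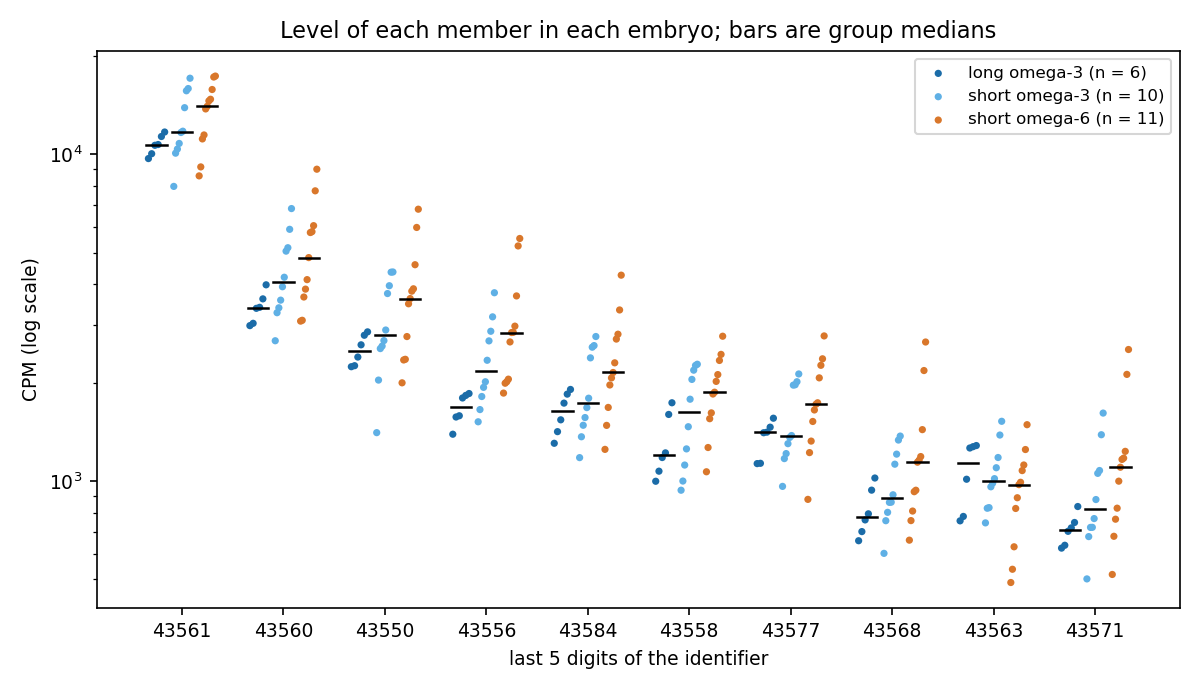
CPM of each of the 10 members (log axis, named by the last digits of the identifier) in each embryo, with 1 point per embryo, colours for the 3 groups and a bar at each group median. For ENSBTAG00000043556 all 11 short omega-6 embryos lie above the highest long embryo at 1853 CPM, the lowest of them at 1858 CPM. Those groups differ in diet as well as size class, and 1.07% of the genes tested shared this pattern. For ENSBTAG00000043563 the 3 groups overlap throughout.

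The summed share spread widely within the short groups and little within the long group. Long omega-3 embryos held from 2.23% to 2.83% of their counts in the 10 members (median 2.52%, n = 6). Short omega-3 embryos ranged from 1.86% to 4.0% (median 2.77%, n = 10), and short omega-6 embryos from 2.06% to 5.40% (median 3.42%, n = 11). Of the short embryos, 5 omega-3 and 7 omega-6 embryos lay above every long embryo, and 1 of each diet lay below every long embryo. The highest shares of all were 5.40% in embryo 25 and 4.65% in embryo 22. In these whole-embryo libraries fewer cells of a type and less of these RNAs per cell cannot be told apart.

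Larger embryos tended to hold a lower share. Against log2 of the size number, the summed share had a Pearson r of -0.598 and a Spearman rho of -0.598 over 27 embryos, given as a description without a p-value because the members were chosen as a set. The r was -0.624 with the 2 most extreme embryos in size left out and -0.598 without embryos 22 and 25. It was -0.619 within the 16 omega-3 embryos and -0.631 within the 11 omega-6 embryos, where rho was -0.435 and -0.648. Within the 21 short embryos r was -0.536 and rho -0.582. The long embryos taken alone did not show the fall. Among them the largest, 01, held the highest share (2.83%) and the smallest, 06, the lowest (2.23%). Sequencing depth did not move with the share: total count and summed share had an r of -0.0308 and a rho of 0.0244.

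**Figure D2:**
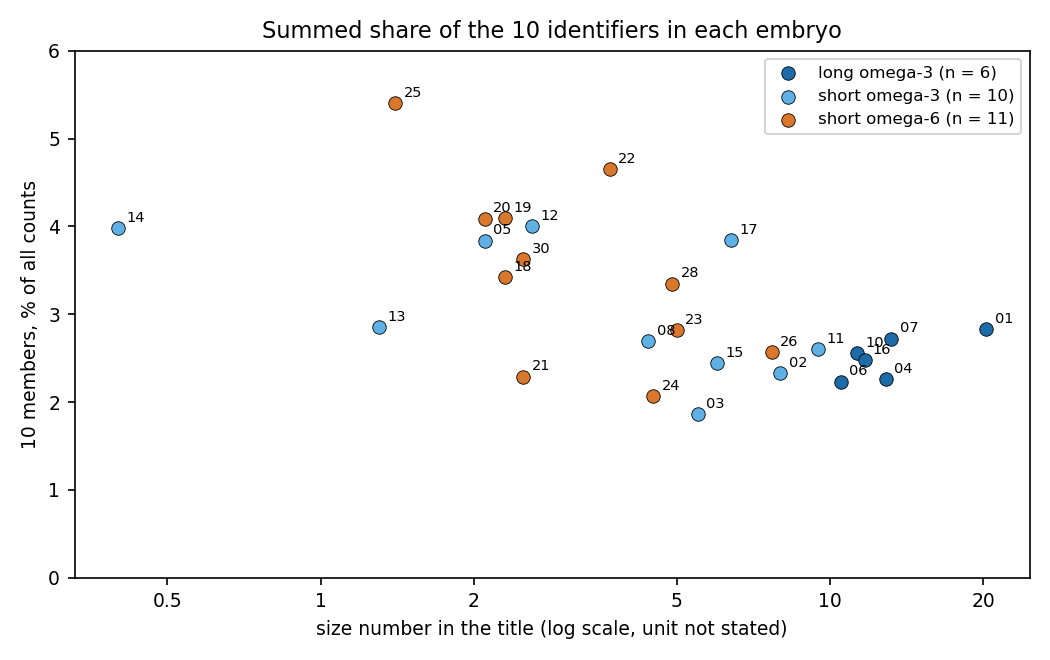
Summed share of the 10 members as a percentage of all counts against the size number in the title (log axis), with 1 numbered point per embryo and colours for the 3 groups. The 6 long embryos sit between 2.23% and 2.83%, embryos 25 and 22 are highest at 5.40% and 4.65%, and embryos of like size differ widely.

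Embryos of nearly the same size often differed as much as small and large ones. The 7 embryos with size numbers from 2.1 to 2.6 ranged from 2.29% (embryo 21) to 4.09% (embryo 19), a 1.79-fold range. At a size number of 2.5 embryo 21 held 2.29% and embryo 30 held 3.63%, both omega-6. At 2.3 the omega-6 embryos 18 and 19 held 3.42% and 4.09%. Across diets at 2.1, the omega-3 embryo 05 held 3.84% and the omega-6 embryo 20 held 4.09%. Between size numbers 4.4 and 6.4 another 7 embryos spread 2.07-fold, from 1.86% in the omega-3 embryo 03 to 3.84% in the omega-3 embryo 17. By contrast the 6 long embryos, with size numbers of 10.5 to 20.3, stayed within 2.23% to 2.83%.

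Each member was next tested against size. Counts of all genes were fitted with edgeR's quasi-likelihood test after TMM scaling, which evens out the bulk of genes between libraries. The 27 embryos entered 1 model with terms for diet, sex letter and log2 of size, and p-values were Benjamini-Hochberg adjusted over the 11919 genes tested. A slope is the log2 change for each doubling in size, of which the embryos spanned 5.67, and calls needed an adjusted p under 0.05. Of the 10 members 4 fell with size and 0 rose, against a background of 14.7% of all genes called falling and 14.2% called rising, or 28.9% in either direction. With DESeq2 in place of edgeR 4 members also fell and 0 rose, against 15.8% of all genes falling and 15.9% rising. The median slope was -0.16 over the members and 0.00 over all genes tested. Another 3 members had an unadjusted p below 0.05, which makes 7 of 10, against 39.6% of all genes. Apart from ENSBTAG00000043563 the members moved together across embryos (Pearson r of log2 CPM 0.796 to 0.974 between pairs). Their calls are therefore not separate observations.

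The steepest falls were those of ENSBTAG00000043571 and ENSBTAG00000043556. ENSBTAG00000043556 measured 1391 to 1853 CPM in long omega-3 embryos (median 1690, n = 6), 1518 to 3769 in short omega-3 (median 2177, n = 10) and 1858 to 5524 in short omega-6 embryos (median 2848, n = 11). In plain CPM the long and the short omega-6 embryos did not overlap, by a narrow margin (1853 against 1858 CPM). Those groups differ in diet as well as in size class. The pattern, with the long embryos lower, was shared by 1.07% of the genes tested. Within the omega-3 diet the classes overlapped, and 7 of 10 short embryos lay above every long one. Its slope was -0.24 ± 0.07 (SE), a 1.18-fold fall per doubling (edgeR adjusted p = 0.00974). The call held in every fit that left out 1 embryo, with adjusted p up to 0.0465.

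ENSBTAG00000043571 measured 623 to 836 CPM in long embryos (median 710), 502 to 1614 in short omega-3 (median 823) and 518 to 2526 in short omega-6 embryos (median 1102). It exceeded every long embryo in 7 omega-6 and 5 omega-3 embryos of the short class, and 1 of each lay below every long embryo. Its slope of -0.25 ± 0.08 (SE) passed (edgeR adjusted p = 0.0175) but missed the threshold without the smallest embryo, 14, at a slope of -0.28 (adjusted p = 0.0758).

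The other calls were weaker. ENSBTAG00000043560 measured 2989 to 3985 CPM in long (median 3389), 2687 to 6820 in short omega-3 (median 4068) and 3086 to 9001 in short omega-6 embryos (median 4828). Its slope was -0.19 ± 0.07 (SE, edgeR adjusted p = 0.0302), and its call ended without embryo 14, 25 or 26, with the adjusted p reaching 0.13. ENSBTAG00000043558 measured 998 to 1736 CPM in long (median 1200), 937 to 2277 in short omega-3 (median 1623) and 1067 to 2774 in short omega-6 embryos (median 1870). Its slope of -0.17 ± 0.06 (SE) lay at the threshold (edgeR adjusted p = 0.0475), and leaving out any of 20 of the 27 embryos ended the call.

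In the other members the slope did not pass. Those of ENSBTAG00000043550 and ENSBTAG00000043584 were -0.18 ± 0.07 and -0.16 ± 0.07 (SE, edgeR adjusted p = 0.0654 and 0.0774), and both passed without embryo 22 (adjusted p = 0.0134 and 0.023). The most counted member, ENSBTAG00000043561, measured 9702 to 11698 CPM in long (median 10682), 7974 to 17091 in short omega-3 (median 11712) and 8588 to 17351 in short omega-6 embryos (median 14021). Its slope was -0.10 ± 0.05 (SE, edgeR adjusted p = 0.119). For ENSBTAG00000043577 and ENSBTAG00000043568 the slopes were -0.12 ± 0.06 and -0.13 ± 0.09 (adjusted p = 0.146 and 0.279). ENSBTAG00000043563 alone among the 10 had no negative slope in this fit, at 0.01 ± 0.06 (adjusted p = 0.939), and its sign turned in 6 of the 27 fits that left out 1 embryo.

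How many members passed depended on single embryos and on the scaling. The number falling was 1 without embryo 14, where 8.87% of all genes fell, and 6 without embryo 22, where 20.2% did. It was 2 without embryo 25 (14% of all genes) and 2 without embryo 26 (13.2%), so the share of all genes moved in the same direction as the members' count. Without both 22 and 25 it was 6 (19.9% of all genes), and without 14, 22 and 25 it was 2 (13.6%). With plain total counts in place of TMM 8 members fell, while the split of all calls changed from 1698 rising and 1752 falling to 1303 rising and 2582 falling (21.7%). With the size number on a linear scale 0 members passed, while 10.3% of all genes fell. Within the 16 omega-3 embryos 3 members and 18.2% of all genes fell. Within the 11 omega-6 embryos 0 passed (1 gene of all was called there), although the slopes of all 10 were negative, from -0.59 to -0.05.

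Whether the slope differed between diets was tested as an interaction in the 21 short embryos. No member passed with edgeR (0 called and 0 at an unadjusted p below 0.05, 0 with DESeq2, against 0% of 11534 genes called by edgeR and 4.38% at an unadjusted p below 0.05). The difference, omega-3 minus omega-6, ran from 0.07 to 0.37 per doubling over the members with SE from 0.17 to 0.30. For ENSBTAG00000043563 the difference was 0.07 ± 0.19 (SE), and for ENSBTAG00000043571 it was 0.37 ± 0.27. Without embryos 22 and 25 it ran from 0.06 to 0.16.

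**Figure D3:**
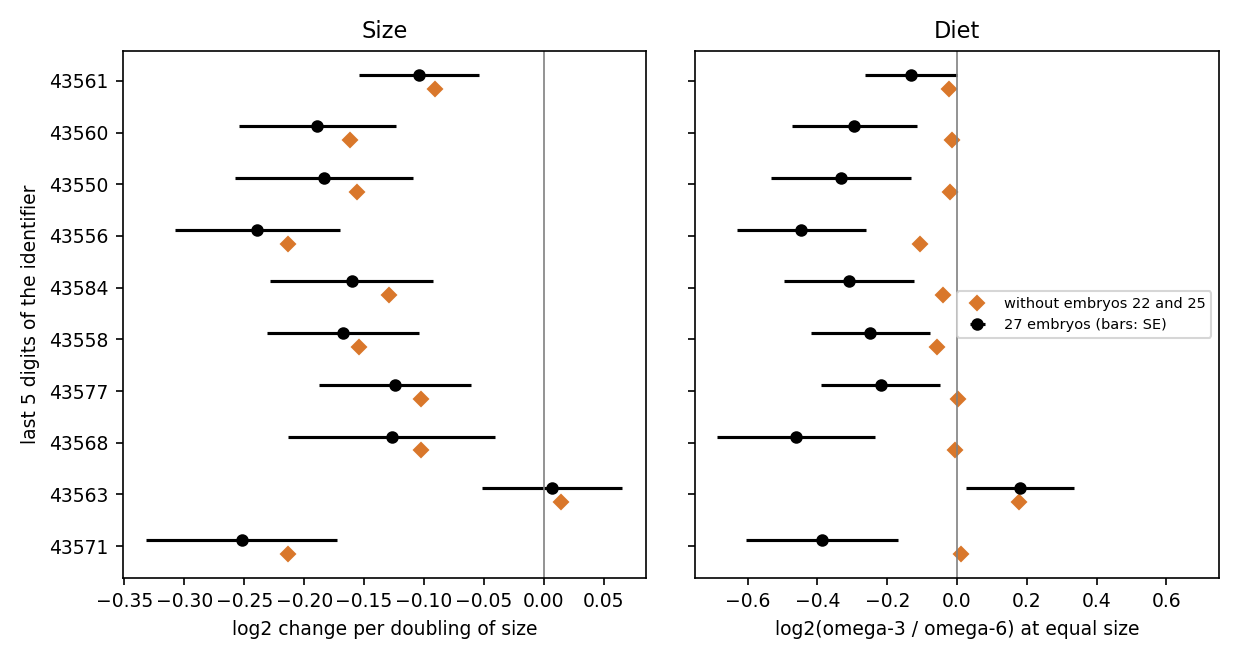
Left, log2 change per doubling of the size number, and right, log2 difference between omega-3 and omega-6 embryos at equal size, for each of the 10 members (named by the last digits of the identifier). Black points with SE bars are the edgeR fit to 27 embryos and orange diamonds the fit without embryos 22 and 25. Slopes on size change little, from -0.24 to -0.21 for ENSBTAG00000043556, while diet differences move towards 0, from -0.46 to -0.01 for ENSBTAG00000043568.

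Long and short embryos of the omega-3 diet were compared by class, in a model of group and sex letter. None of the 10 members passed, 0 by edgeR and 0 by DESeq2. Of all genes, edgeR called 0.956% higher and 0.461% lower in long embryos, and DESeq2 called 2.97% higher and 2.88% lower. An unadjusted edgeR p under 0.05 was found for 0 members, against 19.7% of all genes. The log2 change ran from -0.47 ± 0.26 (SE, adjusted p = 0.32) for ENSBTAG00000043556 to 0.05 ± 0.19 (SE, adjusted p = 0.923) for ENSBTAG00000043563. The other 8 were negative, and the median was -0.24, against -0.01 over all genes.

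Diet was compared at equal size over all embryos and within the short class. Both comparisons use the same short embryos and are not independent of each other. At equal size 0 members passed with edgeR (1 at an unadjusted p below 0.05, 0 with DESeq2), against 0% of all genes called and 11.9% at an unadjusted p below 0.05. Among short embryos the counts were again 0, 1 and 0, against 0% and 8.88% of all genes. At equal size 9 of 10 members were lower in omega-3 than in omega-6 embryos, with a median log2 difference of -0.30. Over all genes 5876 of 11919 were lower, with a median of 0.00. Those 9 members moved together across embryos (Pearson r of log2 CPM 0.796 to 0.974 between pairs), so their signs are not separate observations. The largest differences were -0.46 ± 0.23 (SE) for ENSBTAG00000043568 and -0.45 ± 0.18 for ENSBTAG00000043556 (edgeR adjusted p = 0.42 and 0.414). ENSBTAG00000043563 was at 0.18 ± 0.16 (SE, adjusted p = 0.6).

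These differences rested on embryos 22 and 25. Without them, ENSBTAG00000043568 differed by -0.01, ENSBTAG00000043571 by 0.01 in place of -0.39, and ENSBTAG00000043560 by -0.01 in place of -0.29 at equal size. The most negative value left was -0.11, for ENSBTAG00000043556. ENSBTAG00000043563 hardly moved, at 0.18. In group means, ENSBTAG00000043568 averaged 983 ± 261 CPM over the 10 short omega-3 embryos (SD). Its mean was 1260 CPM over the 11 short omega-6 embryos, with a range of 659 to 2663, but 1002 ± 248 CPM (SD) over the 9 other than 22 and 25. The summed share was 3.04 ± 0.795% in short omega-3 embryos, 3.49 ± 1.03% in all 11 short omega-6 embryos and 3.15 ± 0.748% in those 9.

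In plain CPM, embryos 22 and 25 held the highest and second highest level of all 27 in 8 of the 10 members, and after TMM scaling in 9. They were singled out from these data, so their values are given without a test. ENSBTAG00000043568 reached 2663 CPM in embryo 22 and 2178 in embryo 25, which were 2.84 and 2.32 times the median of the 9 other omega-6 embryos. ENSBTAG00000043571 reached 2120 and 2526 CPM, or 2.12 and 2.53 times that median. ENSBTAG00000043560 reached 7729 and 9001 CPM (1.87 and 2.18 times) and ENSBTAG00000043556 5241 and 5524 CPM (1.97 and 2.07 times).

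The rise was unequal among members. ENSBTAG00000043561 was at 14021 and 17232 CPM in these 2 embryos, or 1.02 and 1.25 times the median of the 9 others. ENSBTAG00000043563 was at 629 and 975 CPM, or 0.635 and 0.983 times that median, and ranked 25 and 16 of 27. These ratios depend on the scaling, since both embryos had low TMM factors. After TMM the ratios in embryos 22 and 25 were 1.29 and 1.39 for ENSBTAG00000043561 and 3.77 and 2.69 for ENSBTAG00000043568. For ENSBTAG00000043563 they were 0.804 and 1.08, so its direction turned in embryo 25. Embryo 25, with a size number of 1.4, was the smallest omega-6 embryo, and embryo 22 had a size number of 3.7. Among the 25 other embryos ENSBTAG00000043568 did not exceed 1436 CPM.

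The make-up of the summed counts was steadier than their level. Within an embryo, ENSBTAG00000043561 held 40.8 ± 3.41% of the members' counts (SD, n = 27), ENSBTAG00000043560 14.3 ± 1.28% and ENSBTAG00000043550 10.2 ± 1.1%. The coefficient of variation (CV, SD over mean) of ENSBTAG00000043561 was 22.3% for its CPM and 8.34% for its part of the sum. This member is itself a large part of the sum it is divided by, which lowers the second CV by construction. For ENSBTAG00000043577 the CVs were 29.1% and 6.11%, and for ENSBTAG00000043584 35.1% and 7.69%. These members had the lowest CVs of the part among the 10. Other parts varied more, up to 16.7% for ENSBTAG00000043568 and 18.2% for ENSBTAG00000043571, beside 43.4% and 47.5% for their CPM. Only ENSBTAG00000043563 had a higher CV for its part of the sum (28.6%) than for its CPM (26.8%).

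That part of the sum, for ENSBTAG00000043563, was 3.38% to 5.14% in long omega-3 embryos (median 4.13%, n = 6), 2.15% to 4.46% in short omega-3 (median 3.56%, n = 10) and 1.35% to 4.42% in short omega-6 embryos (median 2.60%, n = 11). The groups overlapped, with long embryos at the high end. Against log2 size it had r = 0.585 and rho = 0.678 over 27 embryos, a description in the opposite direction to that of the summed share. The log2 CPM of this member did not itself follow size (r = 0.0389, rho = 0.108). The sum by which it is divided was lower in larger embryos, so the 2 descriptions are not independent. This part of the sum had r = 0.604 within omega-3 and 0.424 within omega-6 embryos, 0.59 without embryos 22 and 25, and 0.616 without the 2 embryos farthest in size. The lowest values of all were 1.35% in embryo 22 and 1.80% in embryo 25, and the next was 2.14%.

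ENSBTAG00000043561 also held its lowest parts of the sum in embryos 22 and 25, at 30.1% and 31.9%. Embryo 14, the smallest, followed at 34.9%, and the remaining 24 embryos lay between 38.6% and 45.0%. In turn ENSBTAG00000043568 held 5.73% of the sum in embryo 22 and 4.03% in embryo 25, above the 2.71% to 3.61% of the 25 others. ENSBTAG00000043550 and ENSBTAG00000043556 likewise had their highest parts in these 2 embryos, at 12.8% and 12.6% and at 11.3% and 10.2%.

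**Figure D4:**
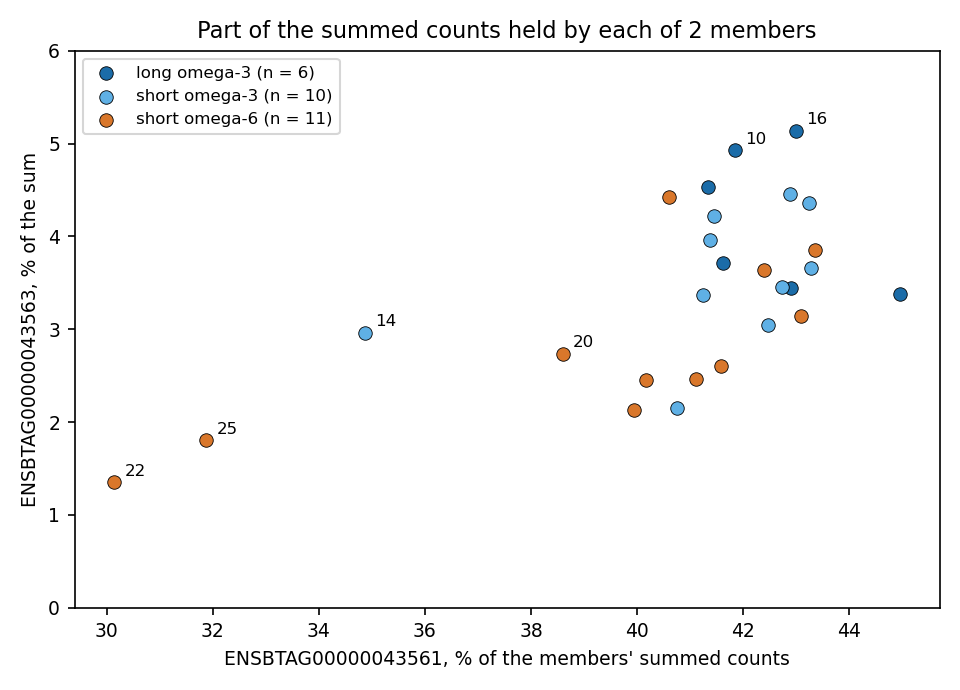
Part of the members' summed counts held by ENSBTAG00000043561 (horizontal axis, %, starting near 30) and by ENSBTAG00000043563 (vertical axis, %), with 1 point per embryo and colours for the 3 groups. Embryos 22 and 25 sit apart at the lower left (30.1% and 1.35%, 31.9% and 1.80%), and embryo 14 lies between them and the others at 34.9%.

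Across embryos 9 members moved together and ENSBTAG00000043563 moved apart. Among the 36 pairs of the 9, Pearson r of log2 CPM was 0.796 to 0.974 (median 0.92), with ENSBTAG00000043584 and ENSBTAG00000043577 the closest pair. The 9 pairs that hold ENSBTAG00000043563 had r from 0.0524 to 0.493 (median 0.235). Without embryos 22 and 25 the ranges were 0.807 to 0.969 and 0.265 to 0.669. After diet, size and sex letter were removed by a linear fit, they were 0.725 to 0.97 and 0.229 to 0.645. All values share 27 libraries and their totals, and members may share reads of 1 precursor, so the correlations are a description. The ratio of 2 members varied with an SD of 0.11 to 0.36 log2 units among the 9 and of 0.38 to 0.65 against ENSBTAG00000043563.

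**Figure D5:**
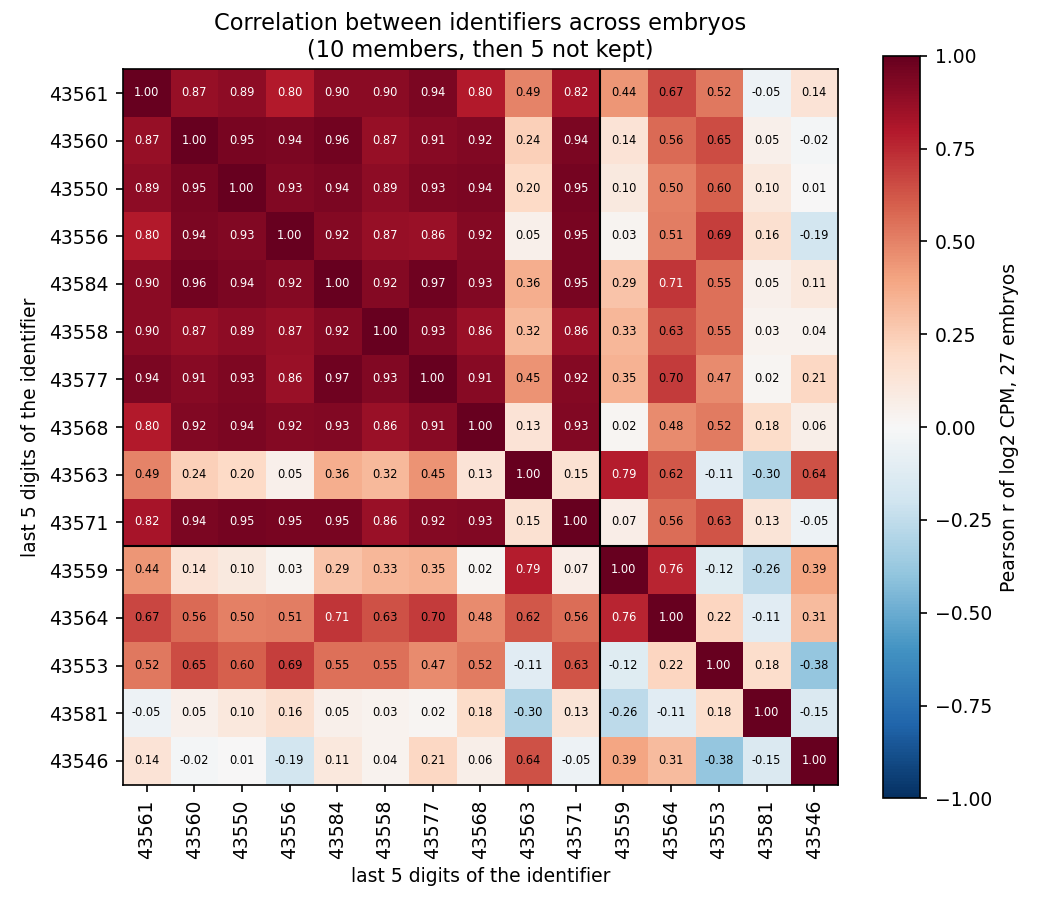
Pearson r of log2 CPM across the 27 embryos between the 10 members and the 5 identifiers of the run that were not kept and have counts in every embryo (lines separate the sets, identifiers named by their last digits). The 9 members other than ENSBTAG00000043563 form a block with r of at least 0.796, and ENSBTAG00000043563 is closest to ENSBTAG00000043559 at 0.787.

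The 6 identifiers left out behaved in several ways. ENSBTAG00000043559 (67.0 to 246 CPM, median 116) and ENSBTAG00000043564 (45.7 to 214 CPM, median 87.7) are the next by mean CPM. They had r of 0.787 and 0.62 with ENSBTAG00000043563, and of 0.443 and 0.671 with ENSBTAG00000043561. Neither followed size (slopes 0.02 ± 0.08 and -0.04 ± 0.08, SE, edgeR adjusted p = 0.896 and 0.72). Like ENSBTAG00000043563, ENSBTAG00000043559 was low in embryo 22, where its 67.0 CPM was the lowest of the 27 in plain CPM, though not after TMM, where it ranked 22.

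A pair of the others followed size in opposite directions, and both are named after their values were seen. Of all genes tested 14.7% were called falling and 14.2% rising. ENSBTAG00000043553 measured 45.7 to 65.1 CPM in long (median 51.8), 60.9 to 128 in short omega-3 (median 69.9) and 56.3 to 146 in short omega-6 embryos (median 79.4), so long embryos were lowest with some overlap. Its slope was -0.24 ± 0.05 (SE, edgeR adjusted p = 0.0012). ENSBTAG00000043546 measured 3.30 to 11.04 CPM in long (median 9.48), 3.12 to 7.94 in short omega-3 (median 4.68) and 2.31 to 7.50 in short omega-6 embryos (median 5.07). It rose by 0.26 ± 0.08 per doubling (SE, edgeR adjusted p = 0.02), at only 49 to 239 reads per embryo. Its log2 CPM had r = 0.586 with log2 size within the 16 omega-3 embryos. Within the 11 omega-6 embryos it did not follow size (r = -0.0505, rho = 0.0365). ENSBTAG00000043581 stayed between 8.03 and 15.9 CPM with a slope of 0.00 ± 0.05 (adjusted p = 0.957), and ENSBTAG00000043578, with 2 reads in all, was the 1 identifier of the 16 that failed the filter.

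The members varied more between embryos than most genes. On the log2 scale after TMM the SD over 27 embryos was 0.34 to 0.61 for the 10 members (median 0.50). The median was 0.34 over all 11919 genes tested and 0.29 over the 200 genes with the highest mean CPM.

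Genes most alike in pattern were those outside the 10 whose log2 CPM correlated best with the log2 of the members' summed level. The first was ENSBTAG00000034255 at r = 0.863 (rho = 0.808, n = 27), which measured 108 to 323 CPM after TMM. ENSBTAG00000046936 (r = 0.843), ENSBTAG00000003390 (r = 0.842), ENSBTAG00000021607 (r = 0.833) and ENSBTAG00000017067 (r = 0.83) followed. Among all 11919 genes, 9 members held the first 9 places at r of 0.94 to 0.985, in part because each is counted in the sum, whereas ENSBTAG00000043563 came at place 3229 (r = 0.377). Without embryos 22 and 25 the 5 outside genes had r of 0.669 to 0.735. Their slopes on size ran from -0.19 to -0.09, which is no separate result because they were picked for following a sum that is itself lower in larger embryos. The files do not pair these identifiers with names.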

How the data were processed

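Each file gives the authors' raw read count for each Ensembl gene identifier in 1 embryo. Per the labels' protocols, libraries were stranded, selected polyadenylated RNA and were read as single reads of 100 bp. STAR and featureCounts stand in the submitters' processing notes; genome build, annotation, strand setting and the treatment of reads with several matches are not stated in any source used. Nuclear copies of mitochondrial sequence could share reads with members, so levels carry that uncertainty.

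CPM are counts over the file total. Tests used edgeR 4.0.16 in R 4.3.3 (filterByExpr on the 3 groups, minimum count 10; TMM; glmQLFit and glmQLFTest, two-sided, Benjamini-Hochberg over all genes) on all 27 embryos, or the 21 short ones for the interaction, with sex letter as a covariate; SE are the log2 change over the square root of F. The code was tested on simulated data. DESeq2 1.42.0 and the other alternatives are given under sensitivity. No 2 libraries were copies (chi-square per degree of freedom at least 13.6 over 351 pairs).

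Members, lists and tests were chosen with earlier results of these data known. By the rule for named genes, all 10 members, the identifiers ranked 11 and 12, and the 5 genes most alike in pattern are named. Lists of nuclear respiratory-chain genes and cell type markers needed gene names and were not evaluated.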

Additional observations from a re-analysis of the deposited data

Results flagged for a closer look

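In the smallest embryo, 14, ENSBTAG00000043561 held 34.9% of the members' summed counts, the lowest of the 10 short omega-3 embryos. The next lowest was 40.7%, and the gap was 0.699 of the group's range, beyond Dixon's 95% limit for 10 samples. The measures tested this way made 26 groups of embryos, and chance alone puts about 1 in 20 groups beyond the limit. The short omega-6 group of 11 embryos, with embryos 22 and 25 in it, has more than 10 samples and was not tested this way.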

How the results depend on the processing

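No paired analysis was possible because embryo numbers do not repeat across groups. The 4 members falling with size became 8 with plain total counts, 1 without embryo 14 and 0 with the size number on a linear scale (10.3% of all genes still fell), within the omega-6 embryos or within omega-6 without 22 and 25; without 14, 22 and 25 (chosen after seeing the data, as was the fit named before it) there were 2, and leaving out each embryo in turn gave 1 to 6. The slope of ENSBTAG00000043563 turned to -0.0123 with plain total counts, -0.0537 within omega-6 and -0.0489 within omega-6 without 22 and 25, and ran from -0.0180 to 0.0382 over the fits that left out 1 embryo. Diet at equal size turned without 22 and 25 for ENSBTAG00000043577 (0.00225) and ENSBTAG00000043571 (0.0113), and without 14, 22 and 25 for ENSBTAG00000043561 (0.0167), ENSBTAG00000043577 (0.00725) and ENSBTAG00000043568 (0.00505). The cause of these changes was not tested. Counts of members called in the other 4 comparisons were 0 under each alternative run, RLE factors, no low-count filter, DESeq2, no sex letter and library sizes without the run of identifiers included. Group means of the summed share and of the parts of the sum moved by less than 1 SD between embryos under the alternatives run for them. That limit is wide, and such alternatives could hardly exceed it, so it shows little about stability. The mean share of short omega-6 embryos was 3.49%, or 3.15% without 22 and 25, beside 3.04% in short omega-3 embryos. Ratios within an embryo do not depend on library scaling by construction. Over all genes, 3450 were called for size, 2143 without embryo 14, 1 within omega-6 and 11 within omega-6 without 22 and 25, and 169 for long against short omega-3, but 697 with DESeq2, 1004 without 22 and 25, 87 without the filter and 49 without 14.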
